A study of Solanum lycopersicum with 12 samples.

Results

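SAM3 is a tomato gene for S-adenosylmethionine synthetase, and 5 of the clones on a root salt-stress array carry its name. The members were all spots with the symbol SAM3 (gene ID 544302) in the platform's probe annotation, with no use of measured values. They are 15 of 10368 spots, or 5 of 3456 clones, since each clone was printed as 3 adjacent spots. All 5 clones had values on all 12 arrays, as did 3018 clones in all. Each clone is named here by the number of its first spot, as clone 286, clone 3181, clone 4396, clone 5650 or clone 8152. The annotation names clones of 38 genes and no clone of SAM1 or SAM2, the other S-adenosylmethionine synthetase genes of that naming in the RefSeq gene table. Transcripts of close relatives can hybridise to a cDNA clone, and their part in these ratios was not tested.

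S-adenosylmethionine synthetase joins methionine and ATP to S-adenosylmethionine, the main methyl donor of the cell. In plants the same compound feeds the synthesis of lignin and other methylated compounds, of the hormone ethylene through 1-aminocyclopropane-1-carboxylate, and, after decarboxylation, of the polyamines spermidine and spermine. The enzyme is encoded by a small gene family, whose members in tomato are known as salt-responsive genes.

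The study set root RNA of salt-treated tomato seedlings against root RNA of control seedlings of the same genotype. The genotypes were ZS-5, labelled as salt sensitive, and LA2711, labelled as salt tolerant, and the treatment lasted 30 min, 2 hr or 6 hr. Each of the 6 conditions has 2 arrays with the dyes swapped, which were averaged and counted as 1 replicate. The sources used here do not give the salt dose, the number of plants in a sample or whether control plants were shared between times. The p-values therefore rest on the 6 condition values, whose spread may be partly technical. For a single time the error came from the gap between the genotypes within a time, pooled over the times. For differences it came from the spread left after genotype and time, and for the mean of all conditions from their whole spread.

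Values are log2 ratios of the treated and control RNA, centred so that the median clone of each array lies at 0. The sign has the same meaning on all 12 arrays, but the labels and values do not settle whether treated or control RNA is the numerator. Positive values stand for 1 side of the salt response, and no value is called an induction. Before centring, the array medians lay between -0.15 and 0.49 at 30 min, between -0.56 and 0.16 at 2 hr and between -1.26 and -0.58 at 6 hr. Uncentred values are printed where this shift matters. The deposited ratios hold no signal levels, so the depth behind a ratio is unknown, the number of arrays limits the precision, and the root tissue could not be checked against marker genes. In bulk tissue a change in the share of a cell type and a change of RNA per cell cannot be told apart. The arrays of a condition correlated with r between 0.81 and 0.98 across clones, which do not count as independent replicates. Arrays of different conditions correlated with r between 0.31 and 0.98. The SAM3 spots were complete, with 0 missing values and 0 values at the limits of the ratio. The SD within a set of 3 SAM3 spots had a median of 0.091 over the 60 sets and reached at most 0.285.

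The first question was whether SAM3 responded within 30 min. All 5 clones lay on the positive side in both genotypes, and further out in ZS-5 than in LA2711. On the ZS-5 arrays 1 and 2, clone 4396 lay at 1.36 and 1.15, clone 8152 at 1.34 and 1.21, and clone 3181 at 1.46 and 1.36. Clone 286 lay at 1.35 and 1.22 and clone 5650 at 1.23 and 1.07 on the same arrays. The 5 clones thus sat within 0.26 of each other in ZS-5, and 5 of 5 passed 2-fold on both arrays, where 10.7% of the 3018 clones did so on the positive side. On the LA2711 arrays, clone 4396 lay at 0.30 and 0.75, clone 8152 at 0.28 and 0.91, and clone 3181 at 0.44 and 0.48. Clone 286 lay there at 0.51 and 0.30 and clone 5650 at 0.15 and 0.51. None of the 5 passed 2-fold on both LA2711 arrays, where 5.33% of all clones did.

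Over both genotypes, 4 of the 5 clones were called positive at 30 min, against 9.48% of all clones called positive (limma, adjusted p under 0.05 over 3018 clones). The clone with the smallest p was clone 8152 at 0.94 ± 0.22 (SE, mean of both genotypes, limma adjusted p = 0.0179). Clone 3181 lay at 0.94, clone 4396 at 0.89 and clone 286 at 0.85 (limma adjusted p = 0.045). Clone 5650 lay at 0.74 ± 0.25 and did not pass (limma adjusted p = 0.0742), though it did without centring (0.84, limma adjusted p = 0.0367), where 5 of 5 clones passed against 9.77% of all clones. The median of the 5 clones was 0.89, and that of all clones 0.00. The error of the 30 min test was pooled over the times. The SAM3 gaps of ZS-5 minus LA2711 ran from 0.68 to 0.95 at 30 min. They ran from -0.53 to -0.03 at 2 hr and from -0.19 to 0.31 at 6 hr. With all arrays scaled to the same spread clone 4396 lay at 2.24, and all 5 were called. Under that scaling 707 of the 3018 clones were called positive, so calls became more frequent over all clones too. Without both ZS-5 arrays of 30 min, 0 of the 5 clones were called.

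**Figure D1:**
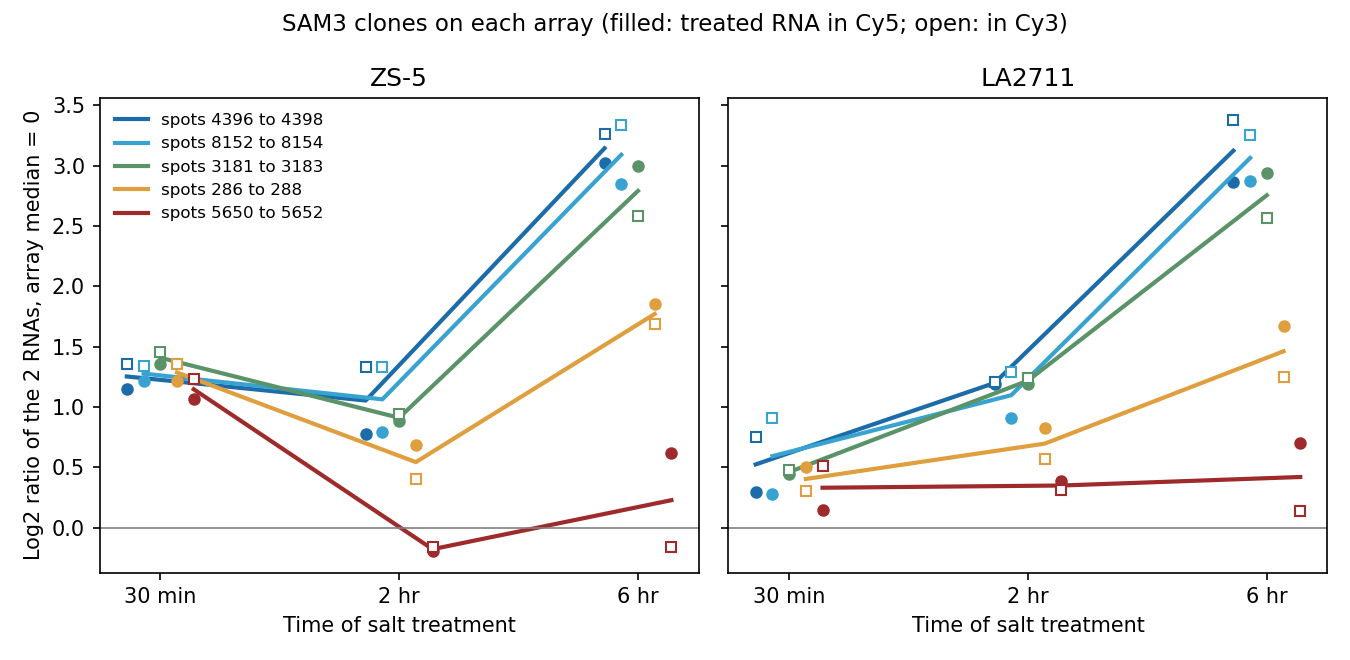
Centred log2 ratio (vertical axis) of each SAM3 clone on every array against time of treatment, with ZS-5 on the left and LA2711 on the right; filled circles are arrays with treated RNA in Cy5, open squares those with treated RNA in Cy3, and lines join the means of 2 arrays. The clones lie together at 30 min, at 1.15 to 1.41 in ZS-5 and 0.33 to 0.59 in LA2711, and fan out by 6 hr from 0.23 to 3.14 in ZS-5 and from 0.42 to 3.12 in LA2711.

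At 2 hr the clones began to part. Clones 4396, 8152 and 3181 lay near 1, clone 286 between them and 0, and clone 5650 near 0. In ZS-5 clone 4396 lay at 0.78 and 1.33, clone 8152 at 0.79 and 1.34, and clone 3181 at 0.88 and 0.94. In LA2711 the same 3 clones lay at 1.19 and 1.21, at 0.91 and 1.29, and at 1.19 and 1.24. These values of both genotypes overlap except for clone 3181, which was higher in LA2711 on both arrays. Without centring clone 3181 overlapped too, at 1.04 and 0.79 in ZS-5 against 1.04 and 0.69 in LA2711. Clone 286 lay at 0.68 and 0.41 in ZS-5, against 0.82 and 0.57 in LA2711. Clone 5650 was the only one with negative values, at -0.19 and -0.16 in ZS-5, against 0.39 and 0.31 in LA2711. Past 2-fold on both arrays were 0 of the 5 clones in ZS-5, where 19.4% of all clones were, and 2 in LA2711 (clones 3181 and 4396), where 14.1% were.

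As a mean of both genotypes at 2 hr, 4 of the 5 clones were called positive, where 32.2% of all clones were. Clone 4396 lay at 1.13 ± 0.23 (SE, limma adjusted p = 0.00209), clone 8152 at 1.08 and clone 3181 at 1.07. Clone 286 lay at 0.62 with a limma adjusted p of 0.0491, and at 0.45 without centring, where it did not pass (limma adjusted p = 0.134) and 3 of 5 clones did, against 21.2% of all clones. Clone 5650 lay at 0.09 with a 95% interval from -0.48 to 0.66, and at -0.09 without centring. The median of the SAM3 clones was 1.07, that of all clones 0.01. With all arrays scaled to the same spread clone 286 was not called (limma adjusted p = 0.141). Without both LA2711 arrays of 2 hr, 2 of the 5 clones were called.

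By 6 hr, 3 of the clones were far out on the positive side, 1 was at about the middle of the upper range and 1 lay near the array median. The log2 ratio of clone 4396 was 3.02 and 3.26 on the ZS-5 arrays, and 2.87 and 3.38 on the LA2711 arrays. For clone 8152 the ZS-5 arrays gave 2.85 and 3.33, the LA2711 arrays 2.87 and 3.26. Clone 3181 read 3.0 and 2.58 in ZS-5, against 2.94 and 2.57 in LA2711. With centring, the arrays of both genotypes overlapped for these 3 clones. Without it clone 8152 did not overlap, at 2.27 and 2.21 in ZS-5 against 2.18 and 1.99 in LA2711. Relative to the median clone, the mean ratio of clone 4396 was 8.84-fold in ZS-5 and 8.72-fold in LA2711. The ZS-5 values of clone 286 were 1.86 and 1.69, its LA2711 values 1.67 and 1.25, with every ZS-5 array above every LA2711 array. These arrays of clone 286 overlapped without centring. Clone 5650 read 0.62 and -0.16 in ZS-5, against 0.70 and 0.14 in LA2711, so that its values straddled 0 in ZS-5. In both genotypes the higher value of clone 5650 was that of the array with treated RNA in Cy5, by 0.78 in ZS-5 and 0.56 in LA2711, which is more than its mean in either genotype (0.23 and 0.42). At 6 hr 4 of the 5 clones passed 2-fold on both arrays in each genotype, where 36.4% of all clones did in ZS-5 and 32.2% in LA2711.

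In the test over both genotypes at 6 hr, 4 of 5 clones were called positive, where 44.9% of all clones were. Clone 4396 lay at 3.13 ± 0.23 (SE, limma adjusted p = 1.42e-06), clone 8152 at 3.08, clone 3181 at 2.77 and clone 286 at 1.62. Clone 5650 lay at 0.32 ± 0.25 and did not pass (limma adjusted p = 0.244). Against 2.77 for the SAM3 median, the median of all clones was -0.04. Without centring every value was smaller by 0.91: clone 4396 lay at 2.22, clone 8152 at 2.16, clone 3181 at 1.86 and clone 286 at 0.70, and these 4 stayed called positive, where 29.2% of all clones were. Clone 5650 lay at -0.59 without centring and was called negative (limma adjusted p = 0.033), as were 52.7% of all clones, so its side at 6 hr depends on the centring. With all arrays scaled to the same spread clone 4396 lay at 1.81, and clone 286 at 0.93 lost its call (limma adjusted p = 0.0725).

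**Figure D2:**
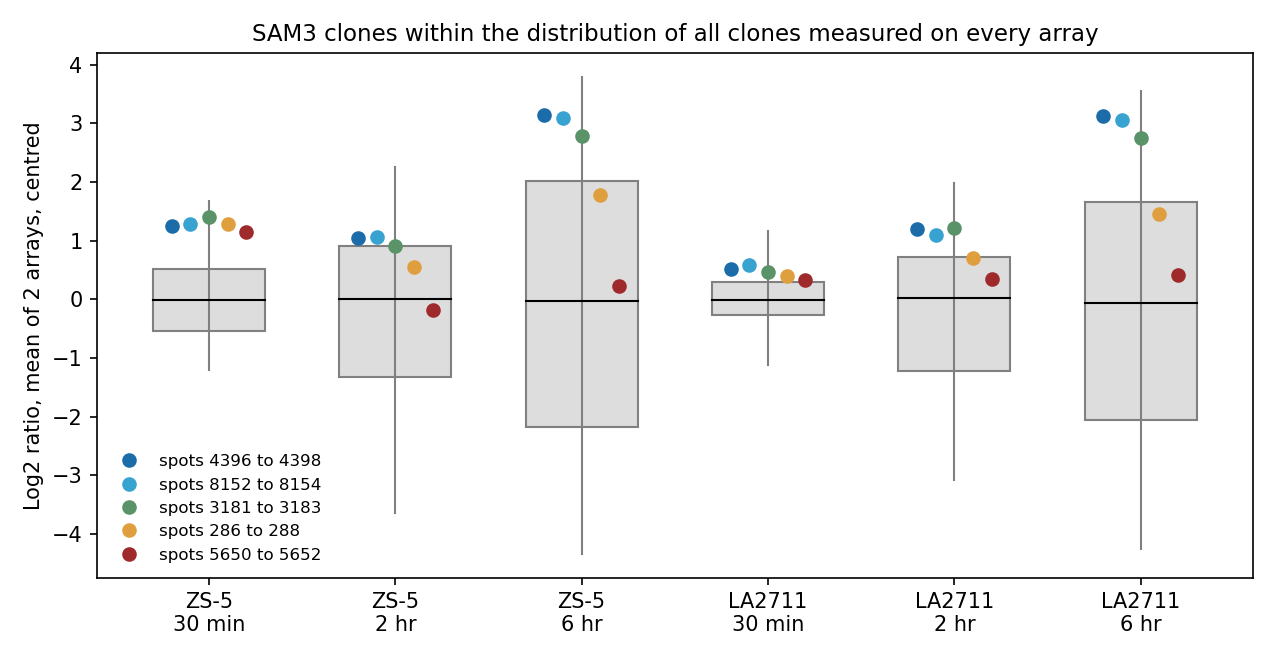
Mean centred log2 ratio of the 5 SAM3 clones (coloured points) in each of the 6 conditions, over the 3018 clones (box: quartiles, line in the box: median, whiskers: 5th to 95th percentile). The SAM3 points stay within the whiskers in all 6 conditions while the boxes widen with time; at 6 hr clone 4396 lies above 89.7% of clones in ZS-5 and 92.6% in LA2711, and clone 5650 above 52.0% and 54.5%.

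Set against all clones, the place of the leading clones changed less than their log2 ratios. Clone 4396 lay above 91.4% of the clones in ZS-5 at 30 min, above 78.6% at 2 hr and above 89.7% at 6 hr. In LA2711 it lay above 85.3%, 87.4% and 92.6%. The spread of all clones grew over the same times: the interquartile range at 30 min ran from -0.54 to 0.52 in ZS-5 and from -0.26 to 0.29 in LA2711, and at 6 hr from -2.18 to 2.02 and from -2.06 to 1.66. Clone 5650 lay above 90.2%, 44.4% and 52.0% of the clones in ZS-5 at the 3 times, and above 77.3%, 58.7% and 54.5% in LA2711.

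The change between times was then tested with the genotype as a covariate. From 30 min to 2 hr, 0 of the 5 clones were called, where limma called 11.5% of all clones positive and 24.8% negative, and 0 of the 5 had an unadjusted p under 0.05. The differences ran from -0.65 for clone 5650 (95% interval from -1.53 to 0.22) to 0.24 for clone 4396 (from -0.52 to 0.99). With centring, the genotypes differed in direction. In ZS-5 all 5 clones were lower at 2 hr than at 30 min, by a median of 0.50, and for clones 286, 3181 and 5650 both arrays of 2 hr lay below both arrays of 30 min, as for 41.3% of all clones. In LA2711 all 5 were higher at 2 hr, by a median of 0.51, and clones 286, 3181 and 4396 did not overlap, as for 41.2% of all clones. Without centring the LA2711 differences ran from -0.56 to 0.18, with a median of -0.07, and 0 of 5 clones lay apart on the higher side, against 9.71% of all clones. The ZS-5 clones then lay apart on the lower side in 5 of 5, where 39.5% of all clones did.

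From 2 hr to 6 hr, 4 of the 5 clones were called positive, where 24.1% of all clones were. Clone 4396 differed by 2.01 ± 0.32 (SE, limma adjusted p = 0.00322), clone 8152 by 2.00, clone 3181 by 1.71 and clone 286 by 1.0 (limma adjusted p = 0.0447). Clone 5650 differed by 0.24 ± 0.37 and was not called (limma adjusted p = 0.632). Without centring, clones 4396, 8152 and 3181 differed by 1.27, 1.26 and 0.97 and stayed called, against 9.48% of all clones, while clone 286 at 0.26 was not (limma adjusted p = 0.48). The median difference of all clones was 0.03 with centring and -0.71 without it. The count was 2 without both ZS-5 arrays of 2 hr, and 0 after quantile normalisation or with all arrays scaled to the same spread, under which 0 of the 3018 clones were called.

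Between 30 min and 6 hr, 3 of the 5 clones were called positive, where 41.6% of all clones were. These were clone 4396 with a difference of 2.24 ± 0.32 (SE, limma adjusted p = 0.000438), clone 8152 with 2.14 and clone 3181 with 1.84. Clone 286 differed by 0.77 ± 0.33 (limma adjusted p = 0.0655) and clone 5650 by -0.41 ± 0.37 (limma adjusted p = 0.342). Without centring, clones 4396 and 8152 differed by 1.23 and 1.13 and stayed called, where 16.3% of all clones were called positive. Clone 3181 at 0.82 missed the threshold (limma adjusted p = 0.0551), and clone 5650 at -1.43 was called negative (limma adjusted p = 0.00895), as were 44.7% of all clones. After quantile normalisation, and with all arrays scaled to the same spread, 0 of the 5 were called. Scaling to the same spread put clones 4396, 8152 and 3181 at -0.43, -0.60 and -0.69.

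**Figure D3:**
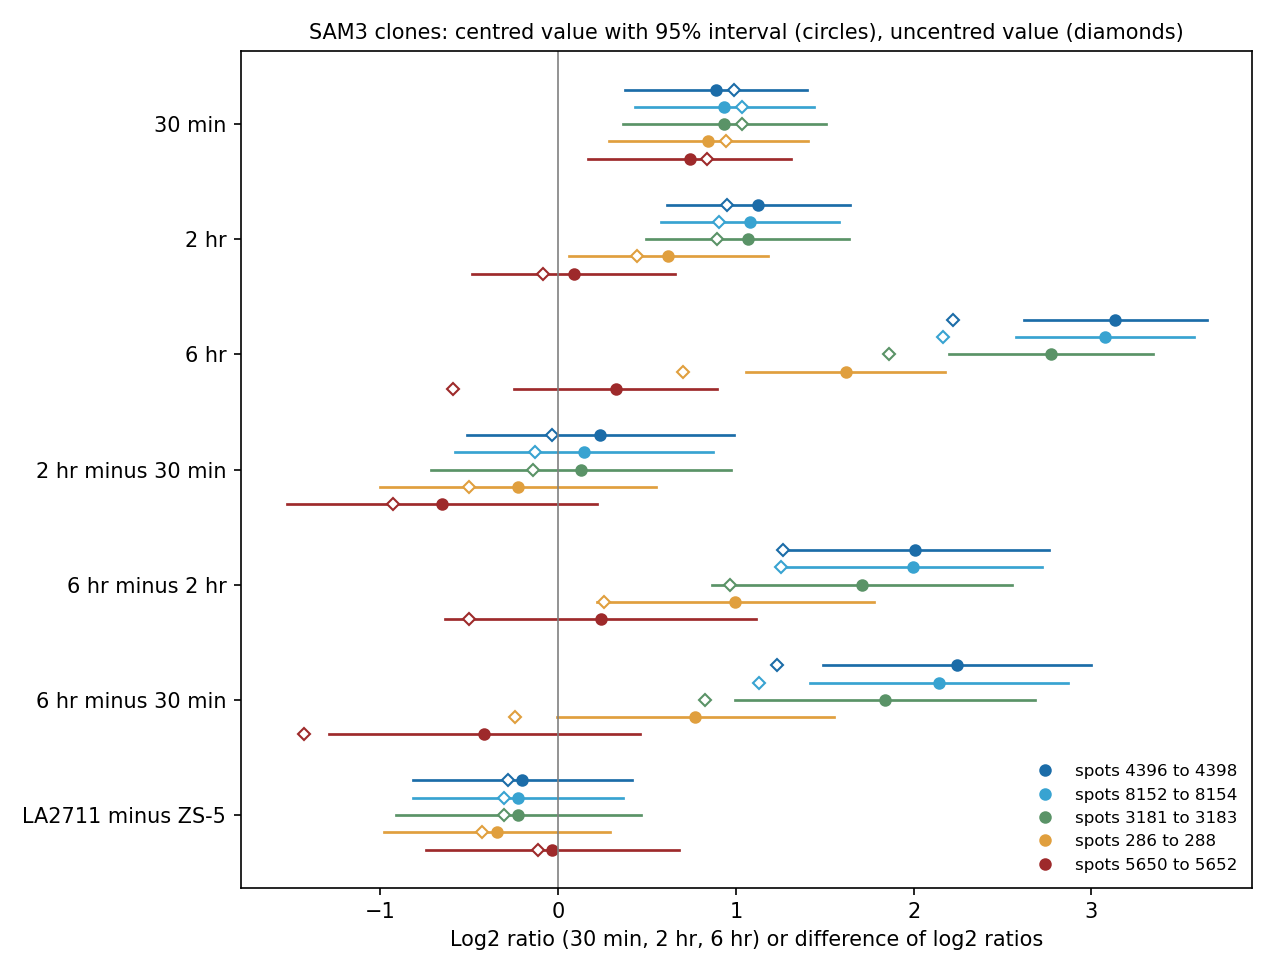
Estimates for the 5 SAM3 clones in 7 tested comparisons (horizontal axis: log2 ratio for the single times, difference of log2 ratios for the rest), as centred values with 95% intervals (circles and bars) and uncentred values (diamonds). At 6 hr 4 intervals lie above 0 and that of clone 5650 runs from -0.25 to 0.90; all 5 intervals of the genotype difference include 0.

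Whether the SAM3 response differed between the tolerant and the sensitive genotype was tested with time as a covariate. Averaged over the 3 times, 0 of the 5 clones were called by limma, as for 0% of the 3018 clones. An unadjusted p under 0.05 was found for 196 clones, none of them SAM3 (0 of 5). The LA2711 minus ZS-5 differences ran from -0.35 (clone 286, 95% interval from -0.98 to 0.29) to -0.03 (clone 5650, from -0.74 to 0.68), with limma adjusted p of 0.951 or more. The intervals leave room for differences of up to 0.98 on the log2 scale in favour of ZS-5 and 0.68 in favour of LA2711.

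At single times a genotype difference has 1 replicate a side and no test. At 30 min both ZS-5 arrays lay above both LA2711 arrays in 5 of 5 SAM3 clones, as they did in 33.8% of all clones. The differences in favour of ZS-5 ran from 0.68 (clone 8152) to 0.95 (clone 3181), with a median of 0.82 against 0.07 for all clones. Without centring the separation held in 5 of 5 clones, with a median of 0.58, where 10.4% of all clones were separated in this way. With each array scaled to the same spread, 3 of the 5 were separated. At 2 hr the order depended on the centring. With it, the clones were lower in ZS-5 by a median of 0.15, and both arrays lay below those of LA2711 for clones 3181 and 5650, as for 36.1% of all clones. Without it, they were higher in ZS-5 by a median of 0.21, in 4 of 5 clones, against 0.31 for all clones. The ZS-5 arrays then lay apart on the higher side for 1 clone (clone 8152), as for 44.9% of all clones, and on the lower side for 0 of 5, against 9.61% of all clones. At 6 hr with centring the median difference was 0.03. Only clone 286 was then separated, with ZS-5 higher by 0.31, as for 27.5% of all clones. Without centring the median was 0.15, against 0.18 for all clones. The arrays of clone 286 then overlapped. Only clone 8152 was separated without centring, with ZS-5 higher by 0.15, as for 728 of the 3018 clones.

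Among themselves the 5 clones formed a graded series. Clones 4396 and 8152 were nearly the same, with a root mean square difference of 0.061 over the 6 conditions, less than the root mean square difference between the 2 arrays of a condition for either clone (0.383 and 0.455). Clone 3181 differed from them by 0.227 and 0.207, which is also within that array difference. Clone 286 differed from clone 3181 by 0.723, with the lower value on 11 of 12 arrays. Clone 5650 stood farthest off, at 1.74 from clone 4396 and 0.83 from clone 286, and it lay below clone 4396 on 12 of 12 arrays.

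The gap between clones 4396 and 5650 widened with time, from 0.11 at 30 min to 1.23 at 2 hr and 2.92 at 6 hr in ZS-5, and from 0.19 to 0.85 and 2.70 in LA2711. Centring takes no part in these gaps, since it shifts all clones of an array alike. The spread of all clones grew over the same times, and scaling the arrays to the same spread changes the gaps. As means of both genotypes, that scaling put clones 4396 and 5650 at 2.24 and 1.80 at 30 min. At 6 hr it put them at 1.81 and 0.19. The difference between the dye orientations varied with the clone. On the 6 hr arrays the centred value of clones 4396 and 8152 was lower with treated RNA in Cy5 than in Cy3. It was lower by 0.24 and 0.49 on the ZS-5 arrays, and by 0.52 and 0.39 on those of LA2711. For the other 3 clones the centred value was higher with Cy5. Without centring the value was higher with Cy5 for every SAM3 clone. For clone 4396 it was higher by 0.31 in ZS-5 and 0.06 in LA2711, for clone 8152 by 0.06 and 0.19. The sign for these 2 clones thus depended on the centring. Averaging of the dye-swap pair balances such an effect only as far as it is equal on both arrays. Clones of a subtracted library can cover different stretches of the transcript. Whether they share sequence was not analysed here.

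Of the 8 genes with at least 3 measured clones on the array, SAM3 had the lowest spread at 30 min. The SD over its clones, as means of both genotypes, was 0.081, and those of the other 7 genes ran from 0.14 (PSBR) to 1.5 (AOS). At 2 hr the SD over the SAM3 clones was 0.447 and at 6 hr 1.21. Of the other 7 genes, 5 had a larger SD at 6 hr, from 1.78 (LOC543878, 3 clones) to 3.16 (AOS, 7 clones), and 2 a smaller one, LOC778326 at 0.948 over 12 clones and LOC544267 at 0.05 over 3. No SAM3 clone was called on the negative side at any time with centring, while clones of AOS and NAC1 ran at 6 hr from -5.24 to 3.49 and from -5.47 to 1.41.

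The named genes with the pattern nearest to SAM3 were ranked by the root mean square difference of their 6 condition values from the median of the SAM3 clones. Nearest was LKT1, a potassium channel gene, at 0.546 (Pearson r = 0.85 over the 6 conditions), which at 30 min, 2 hr and 6 hr lay in ZS-5 at 0.97, 1.92 and 2.55, in LA2711 at 1.08, 1.59 and 2.64. The peroxidase gene TPX2 followed at 0.656 (r = 0.73) and the nearest of 3 clones of LOC543878 at 0.781 (r = 0.94), whose other clones lay at 1.32 (r = -0.47) and 1.47 (r = 0.74). TIP, a tonoplast aquaporin gene, was at 0.966 (r = 0.81) and the glutamate decarboxylase gene GAD2 at 0.968 (r = 0.70). The SAM3 clones themselves lay at 0.073 to 1.52 from their median, so clone 5650 was farther from it than any of these genes. For all 3013 other clones the difference had a median of 1.95. These measures are descriptions over 6 points that share the growing spread with time, and no test was made. At 30 min TPX2, GAD2 and the nearest LOC543878 clone lay higher in ZS-5 than in LA2711, at 2.15 against -0.15, at 3.0 against 0.20 and at 1.19 against 0.13. LKT1 and TIP lay lower in ZS-5, at 0.97 against 1.08 and at -0.91 against 0.07.

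**Figure D4:**
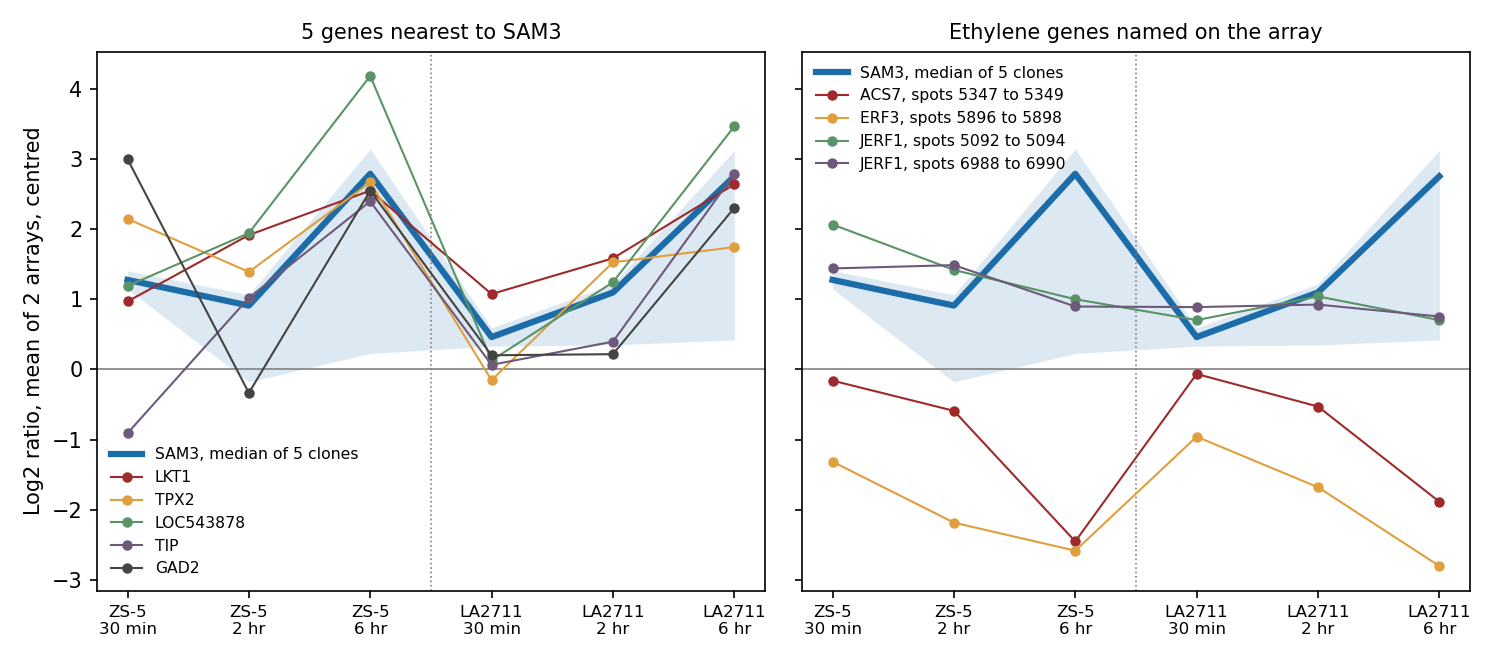
Mean centred log2 ratio in the 6 conditions for the SAM3 median (thick line, shaded from the lowest to the highest clone) with the 5 nearest named genes (left) and the 4 clones of ethylene genes (right). LKT1 runs nearest to SAM3, while ACS7 and ERF3 lie at -2.45 and -2.58 in ZS-5 at 6 hr, where the SAM3 median is 2.79.

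S-adenosylmethionine is the substrate of ethylene synthesis, so the genes of its use were looked up in the same ratios. Of a list covering S-adenosylmethionine synthetases, ethylene synthesis and signalling, polyamine synthesis and methyl transfer, the array names 4 clones of 3 genes beside SAM3, all of the ethylene group. With a median of -0.67 at 6 hr, the list held 2 clones called positive and 2 called negative, where 44.9% and 42.4% of all clones were. ACS7 encodes 1-aminocyclopropane-1-carboxylate synthase, the enzyme that turns S-adenosylmethionine into the ethylene precursor. At 30 min it read 0.07 and -0.39 in ZS-5, against -0.21 and 0.08 in LA2711. At 6 hr the ZS-5 arrays gave -2.53 and -2.37, the LA2711 arrays -1.96 and -1.81. The arrays of the 2 times did not overlap in either genotype. The 6 hr arrays lay apart on the lower side for 1298 of the 3018 clones in ZS-5 and for 1301 in LA2711. The ACS7 difference between 30 min and 6 hr was -2.06 ± 0.29 (SE, limma adjusted p = 0.000423), and it was -3.07 without centring. It lay on the side opposite to that of SAM3 clones 4396, 8152 and 3181, with and without centring. With all arrays scaled to the same spread these SAM3 clones lay on the negative side, without a call. ACS7 was not computed under that scaling. With centring, 1082 of the 3018 clones were called negative between these times.

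ERF3, an ethylene response factor gene, was called negative at all 3 times, at -1.14, -1.93 and -2.69. Of the 3018 clones, 264, 1106 and 1279 were called negative at these times. ERF3 differed by -1.56 ± 0.31 between 30 min and 6 hr (limma adjusted p = 0.00228), where 1082 clones were called negative. The 2 clones of JERF1, another ethylene response factor gene, were called positive at all 3 times. The shares of all clones called positive were 9.48%, 32.2% and 44.9%. JERF1 (spots 5092 to 5094) lay at 1.39, 1.23 and 0.85, and JERF1 (spots 6988 to 6990) at 1.17, 1.21 and 0.83. At 30 min the JERF1 clones thus lay on the same side as the SAM3 clones but above all of them, which ran from 0.74 to 0.94. From 30 min to 6 hr the JERF1 clones differed by -0.53 and -0.34 and were not called (limma adjusted p = 0.199 and 0.316). Uncentred, these differences were -1.55 and -1.35 and were called negative (limma adjusted p = 0.00559 and 0.00994), as were 44.7% of all clones. Without centring the 6 hr values of JERF1 were -0.06 and -0.09 and were not called, whereas 4 SAM3 clones kept their positive calls.

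Over all 6 conditions, 4 of the 5 SAM3 clones were called positive, where 27.6% of all clones were. The mean log2 ratio of clone 4396 was 1.72 ± 0.41 (SE over 6 conditions, limma adjusted p = 0.0157), clone 8152 at 1.70, clone 3181 at 1.59 and clone 286 at 1.03. Clone 5650 lay at 0.38 ± 0.23 (limma adjusted p = 0.167). Without centring the values were 1.39, 1.37, 1.26, 0.70 and 0.05, with the same 4 clones called against 22.5% of all clones. This mean takes the change over time as spread.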

How the data were processed

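Total RNA of tomato roots was hybridised to 2-colour arrays, 12 in all. The authors deposited 1 log2 ratio per spot and array. Nothing in the sources used here names the scanner, the background correction or the normalization. Turned back from log2 (tolerance 1e-04), the ratios of Cy3-treated arrays had 3 decimals for 100% of the spots, as had the inverse ratios of Cy5-treated arrays. The sign of 1 orientation had thus been turned before deposit, and the dye order of the ratio stays unknown.

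Spots at the limits of the ratio (0.001 or its inverse, 366 values) were left out, the remaining spots of each set of 3 averaged, and each array centred on its median over the 3018 clones measured on all arrays. Dye-swap pairs were averaged, which gave 6 values. Models were fitted in R 4.3.3 with limma 3.58.1. Its 2-sided p-values from lmFit and eBayes were adjusted by the Benjamini-Hochberg method over the 3018 clones, with a threshold of 0.05. Single times were fitted as cell means (3 residual degrees of freedom), differences between times with genotype and the genotype difference with time as a covariate (2 each). Conditions on their own, each 1 replicate, were not tested. The script was tested on simulated data. Named were all SAM3 clones, the 5 genes nearest to their median (1 clone a gene) and every other array gene of the list of S-adenosylmethionine use. The members were taken by name alone, but they, the lists and the tests were chosen with earlier results of these data known. Gene names come from the platform annotation and a RefSeq gene table (assembly SLM_r2.1). No genome build is named by the files, so no coordinates are given. Alternatives covered centring, quantile normalisation, spread scaling, spot handling, separate arrays and left-out arrays.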

Additional observations from a re-analysis of the deposited data

Results flagged for a closer look

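Differences between times were singled out by their own test. From 2 hr to 6 hr these were SAM3 clones 286, 3181, 4396 and 8152, at 1.0, 1.71, 2.01 and 2.00. Between 30 min and 6 hr they were clones 3181, 4396 and 8152, at 1.84, 2.24 and 2.14. Groups of 2 arrays are too small for a test of single outlying arrays.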

How the results depend on the processing

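The log2 ratios of the 5 SAM3 clones were recomputed under each alternative. Without centring, clone 5650 changed sign at 2 hr (-0.088), at 6 hr (-0.59) and from 2 hr to 6 hr (-0.50), clone 286 between 30 min and 6 hr (-0.24), and clones 3181, 4396 and 8152 from 30 min to 2 hr (-0.144, -0.036 and -0.13), and 0 clones passed 2-fold on both LA2711 arrays of 2 hr in place of 2. Quantile normalisation and scaling to the same median absolute deviation both remove differences in spread between arrays, so they cannot show whether the widening with time is real. At the single times they moved clone 4396 from 0.89 to 1.67 and 2.24 at 30 min and from 3.13 to 1.93 and 1.81 at 6 hr, and the second cost clone 286 its calls at 2 hr (0.71) and 6 hr (0.93). They left 0 SAM3 clones called from 2 hr to 6 hr and between 30 min and 6 hr. From 30 min to 2 hr clones 3181, 4396 and 8152 lay at -0.37, -0.27 and -0.40 after the first and at -1.07, -0.95 and -1.15 after the second. Between 30 min and 6 hr clones 286 and 3181 lay at -0.70 and -0.041 after the first, and clones 286, 3181, 4396 and 8152 at -1.14, -0.69, -0.43 and -0.60 after the second. After quantile normalisation the LA2711 minus ZS-5 differences of clones 3181, 4396 and 8152 were 0.0152, 0.0441 and 0.0128, and 1 clone passed 2-fold on both arrays in ZS-5 at 2 hr and 1 in LA2711 at 30 min, in place of 0. With equal spread 3 clones passed in LA2711 at 30 min and 3 were separated between genotypes at 30 min, a check chosen after seeing the data.

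Leaving out single arrays or whole conditions gave 0 to 5 SAM3 clones called at 30 min, 2 to 4 at 2 hr, 0 to 1 from 30 min to 2 hr and 2 to 4 from 2 hr to 6 hr. The 1 clone called from 30 min to 2 hr was on the negative side, without both LA2711 arrays of 30 min. In these runs clone 5650 ranged from -0.18 to 0.35 at 2 hr, from -0.18 to 0.66 from 2 hr to 6 hr, from -1.0 to 0.17 between 30 min and 6 hr, and from -0.31 to 0.36 for the genotypes. From 30 min to 2 hr clones 286, 3181, 4396 and 8152 ranged from -0.63 to 0.18, -0.41 to 0.67, -0.16 to 0.63 and -0.20 to 0.49. For the genotypes clones 3181, 4396 and 8152 ranged from -0.49 to 0.14, -0.37 to 0.0626 and -0.36 to 0.0039. A lone array keeps its dye effect, and a lone condition is assumed to vary like the others.

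The repeat numbers did not pair the arrays: deviations from the condition means correlated with r from -0.56 to 0.86 between arrays of the same number and from 0.45 to 0.86 between those of the same dye orientation. With the 12 arrays as separate samples, which counts each dye-swap pair as 2 samples, 5, 4 and 4 SAM3 clones were called at 30 min, 2 hr and 6 hr, and the replicate block gave 5, 4 and 4 too. Over all clones, the 550 calls at 30 min became 1665 with quantile normalisation, 1384 with equal spread, 1280 with separate arrays and 1350 with the block, and 238 with the ZS-5 condition of 30 min left out. The 1308 calls from 2 hr to 6 hr became 0 under both spread-removing settings and the 2337 between 30 min and 6 hr became 1114 and 808. Equal spread gave 1619 calls at 6 hr against 2635, and 688 from 30 min to 2 hr against 1096. The 0 calls for the genotypes became 219 with separate arrays and 269 with the block, of which 0 were SAM3.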
